A study of Mus musculus with 6 samples.

Results

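Autophagy and lysosome genes of the heart were compared between young and old mice, 38 genes in all. They were chosen by name: 24 genes that start, build, load or control the autophagosome, and 14 genes for lysosomal proteases, other lumenal proteins and membrane proteins. Each of the 38 names matched 1 row among the 43629 named gene models of the count table, and all 38 passed the filter on low counts, as did 14413 genes in the whole series. The hearts came from male C57BL/6 mice, 3 young animals of 2 months and 3 old animals of 22 months, all fed normal chow, and the labels name no transgene, deletion or drug in either group. The submitters describe the 3 hearts of an age as independent biological replicates, so n is 3 hearts per age throughout and each heart gave 1 RNA-seq library. The label text on RNA extraction refers to another sample type (abbreviated NRVMs), while the tissue label says heart. Myoglobin (Mb) and ventricular myosin light chain (Myl2) were very abundant in the libraries, at a mean of 8620 and 4780 FPKM, a level scaled to gene length and sequencing depth. The samples were treated as hearts, and the levels of these 2 muscle genes do not decide between the label texts.

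Autophagy encloses cytoplasm, protein aggregates or organelles in a membrane vesicle, the autophagosome, and delivers them to the lysosome. The ULK kinase complex starts the process, a lipid kinase complex around Beclin 1 marks the membrane, ubiquitin-like conjugation enzymes attach ATG8 proteins to it, and cargo receptors bind both ATG8 and the cargo. Lysosomes then break the content down with acid hydrolases, and the transcription factors TFEB and TFE3 can switch on many lysosomal and autophagy genes through a short promoter element, the CLEAR element. In the heart, whose muscle cells are rarely replaced, the pathway is known for the removal of damaged mitochondria and misfolded sarcomere proteins.

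Libraries held 13673856 to 15583364 reads counted in genes. Levels are given as CPM, the counts of a gene scaled to the size of the library after trimmed-mean (TMM) normalization, and old was compared with young by edgeR's quasi-likelihood test with Benjamini-Hochberg adjustment over the 14413 genes tested. A gene is said to have risen or fallen where the adjusted p was under 0.05. Over all genes 2174 passed, which is 15.1% of those tested. The 8.72% that rose were 1257 genes and the 6.36% that fell were 917. The libraries of the 2 ages did not overlap, with every old value above every young value, for 18.8% of genes, and with every old value below every young value for 18.4%. Old libraries were more spread out than young ones: the first principal component (55.6% of the variance) placed old 1 at 16.3, away from old 2 at 47.8 and old 3 at 49.5, with the young libraries between −40.1 and −34.7.

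Most of the 38 genes did not pass the test, and the 4 that did lay in 2 of the 8 functional groups. Atg13 rose, Atg9a and Wipi1 fell, and all 3 act in the start of autophagosome formation. Ctsz, a lysosomal carboxypeptidase, also rose. That is 10.5% of the 38 genes, against the 15.1% of all genes that passed, so the share of changed genes was not above the background. Among the autophagy genes 1 rose and 2 fell of 24 (12.5%), and the median log2 fold change was −0.18, with a range of −0.61 to 0.84. Among the lysosome genes 1 rose and 0 fell of 14 (7.14%), with a median of 0.21 and a range of −0.37 to 0.89. The median over all genes tested was 0.02. At an unadjusted p under 0.05 there were 4 autophagy and 7 lysosome genes, and 4680 of all genes.

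**Figure D1:**
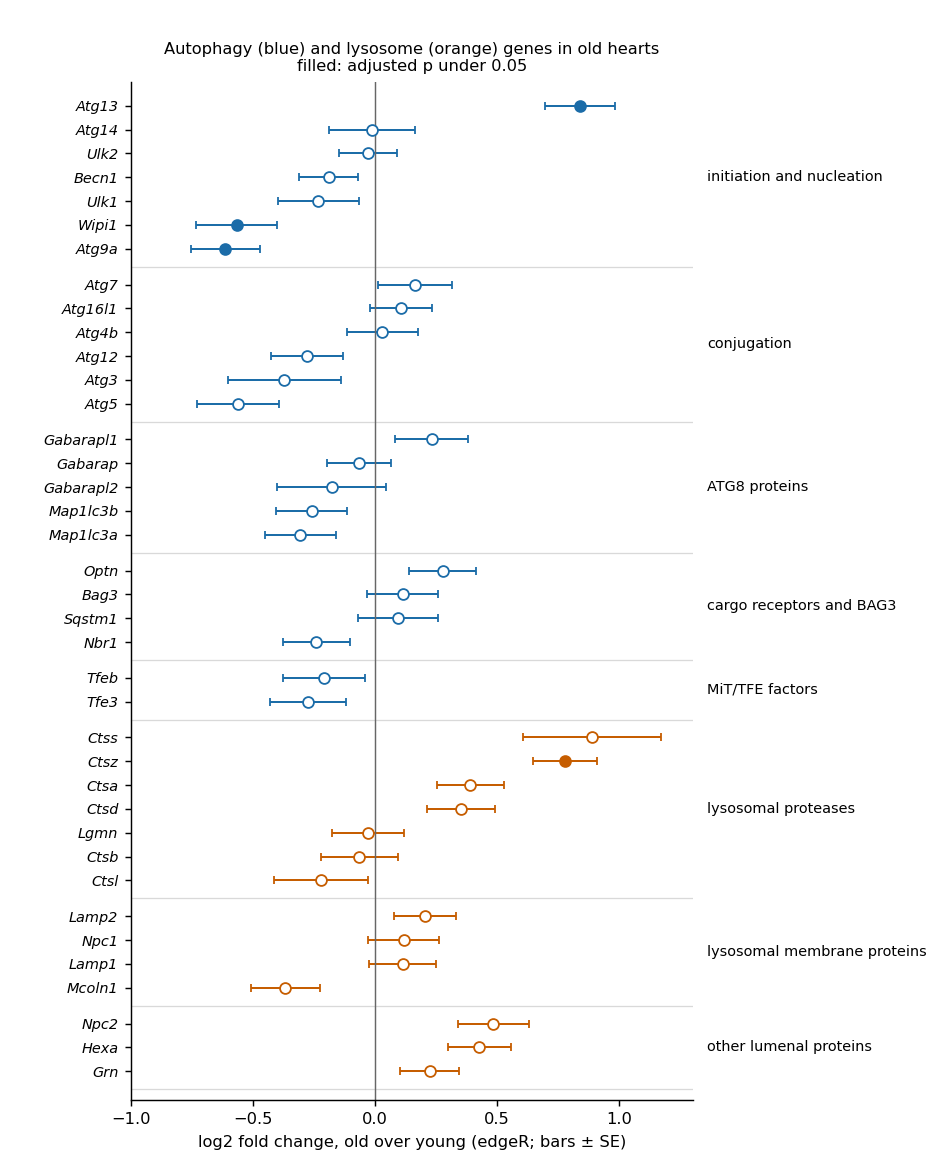
Log2 fold change of old over young for the 38 genes, grouped by role, with bars of ± 1 SE from edgeR and filled points for adjusted p under 0.05. The x axis is in log2 units, autophagy genes are blue and lysosome genes orange, and only Atg13, Wipi1, Atg9a and Ctsz are filled.

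The 2 sets leaned to different sides of zero. Estimates were below 0 for 16 of the 24 autophagy genes and above 0 for 10 of the 14 lysosome genes. Over all 14413 genes tested, 6981 estimates were below 0 and 7432 above. Old and young values did not overlap for 8 autophagy genes, against 18.8% of all genes with old higher and 18.4% with old lower. Old was higher in 2 (Atg13 and Optn) and lower in 6 (Atg5, Atg9a, Becn1, Map1lc3a, Map1lc3b and Wipi1). They did not overlap for 9 lysosome genes, with old higher in 8 and lower in 1, Mcoln1. Genes of a set vary together across the same 6 hearts, so these counts describe the sets, and the difference between the 2 sets was not tested.

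A stretch of DNA before the RefSeq start is printed for 3 of the 4 genes that passed, because they are the genes whose RNA differed. Sites are printed for the genes with the core TCACGTGA of the CLEAR element, because TFEB and TFE3 act through that element. A stretch of Lamp1 is also printed, which lacks that core and holds 4 matches to the shorter CACGTG. Other genes with only the shorter match are not printed. Promoter windows of 250 bases before the RefSeq start were taken from RefSeq on the GRCm38.p6 build and were found for 32 of the 38 genes. The E-box CACGTG, which reads the same on both strands and forms the centre of the CLEAR element, was present in 6.02% of the 32851 windows of all genes, and in 6.86% of the 27025 genes with a window. It was found in 6 of 12 lysosome genes (Ctsa, Ctsd, Ctsl, Lamp1, Lgmn and Mcoln1) and in 3 of 20 autophagy genes (Atg3, Atg5 and Atg7). The longer core TCACGTGA, whose matches are a subset of the E-box matches, was present in 0.785% of all windows and 0.907% of genes, and here in Ctsa, Ctsd, Mcoln1 and Atg3. The FoxO motif GTAAACA, searched on both strands, stood in 3.17% of all windows and in 0 of the 32 genes. No E-box lay in the windows of Atg13, Atg9a, Wipi1 or Ctsz. Capitals mark CACGTG below, all sequences run 5′ to 3′ on the strand of the gene, and the Atg9a window lies within annotated exons and is not printed. RefSeq and GENCODE M21 place some starts differently, so the position of each stretch in the GENCODE gene is given with it.
Lamp1 (bases 1 to 120 before both starts, chr8:13159041-13159160, plus strand): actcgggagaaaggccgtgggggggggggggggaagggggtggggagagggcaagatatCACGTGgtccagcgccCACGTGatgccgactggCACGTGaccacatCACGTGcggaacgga
Ctsd (101 to 130 bases past the GENCODE start, in an exon, chr7:142387908-142387937, minus strand): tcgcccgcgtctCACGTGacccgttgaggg
Ctsa (876 to 905 bases past the GENCODE start, in an exon, chr2:164833749-164833778, plus strand): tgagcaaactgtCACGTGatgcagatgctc
Mcoln1 (5 to 34 bases past the GENCODE start, in an exon, chr8:3500462-3500491, plus strand): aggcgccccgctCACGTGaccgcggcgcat
Atg3 (10 to 39 bases before the GENCODE start, chr16:45158746-45158775, plus strand): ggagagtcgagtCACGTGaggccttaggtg
Atg13 (bases 1 to 120 before the RefSeq start and 17 to 136 before the GENCODE start, chr2:91710593-91710712, minus strand): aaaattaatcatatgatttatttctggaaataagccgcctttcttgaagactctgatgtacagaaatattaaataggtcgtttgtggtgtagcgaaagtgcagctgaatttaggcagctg
Wipi1 (bases 44 to 163 before the RefSeq start, which are 415 to 534 bases past the GENCODE start and outside exons, chr11:109611433-109611552, minus strand): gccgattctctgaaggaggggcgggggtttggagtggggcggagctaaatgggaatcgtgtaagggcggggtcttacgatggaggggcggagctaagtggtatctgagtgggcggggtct
Ctsz (bases 1 to 120 before both starts, chr2:174439040-174439159, minus strand): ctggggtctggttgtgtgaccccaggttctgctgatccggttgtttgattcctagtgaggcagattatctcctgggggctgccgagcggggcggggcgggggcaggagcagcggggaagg
The Lamp1 stretch holds 4 E-boxes, which begin 15, 28, 45 and 61 bases before the start, while the Atg13, Wipi1 and Ctsz stretches hold none. A match in these letters is a description and not evidence of binding. The genes with the TCACGTGA core did not move as a group: the log2 fold changes were 0.35 for Ctsd, 0.39 for Ctsa, −0.37 for Mcoln1 and −0.37 for Atg3, and none of these passed the test with all 6 libraries.

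The initiation and nucleation group held 3 of the 4 genes that passed, with 1 higher and 2 lower of 7. Over all genes 8.72% rose and 6.36% fell, and the difference from these shares was not tested in so small a group. The median log2 fold change of the group was −0.19. Atg13 encodes the adaptor that joins the ULK kinases to the rest of their complex, and its gene spans chr2:91674618-91710576, minus strand (GRCm38, GENCODE M21). It was measured at 91.7, 102 and 91.3 CPM in young 1, 2 and 3, against 151, 163 and 197 CPM in old 1, 2 and 3. Every old heart was above every young heart, and old 3 was the highest. The mean rose from 95.1 ± 6.33 to 170.1 ± 23.7 CPM (SD, n = 3), a log2 fold change of 0.84 ± 0.14 (edgeR adjusted p = 0.00704). On the scale per length this was 20.9 ± 1.45 FPKM in young and 37.2 ± 5.29 FPKM in old hearts. The call was lost when young 1 (edgeR adjusted p = 0.0521) or young 3 (adjusted p = 0.054) was left out. In these 2 fits 539 and 619 of all genes passed, against 2174 with 6 libraries. The log2 fold change of Atg13 stayed between 0.72 and 0.915 whichever library was left out.

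Atg13 lies near Ambra1, which encodes a scaffold that links Beclin 1 and the ULK complex, with Harbi1 between them. Atg13 and Ambra1 were the only ones to rise among the 24 autophagy genes and 31 other tested genes of the autophagy machinery. Ambra1 lies on the plus strand of chromosome 2, 19557 bases beyond the start of Atg13. It was measured at 34.0, 40.0 and 36.0 CPM in young 1, 2 and 3, against 55.5, 58.6 and 75.8 CPM in old 1, 2 and 3. The old values lay above the young ones in every heart and old 3 was again the highest. Its log2 fold change was 0.79 ± 0.15 (edgeR adjusted p = 0.0113), and this call too was lost without young 1 (adjusted p = 0.0712) or young 3 (adjusted p = 0.0699). The CPM of Ambra1 divided by that of Atg13 was 0.371, 0.391 and 0.394 in the young hearts. In the old hearts the ratio was 0.368, 0.360 and 0.385, and the ages overlapped. The log2 fold changes of the 2 genes were close, so a similar ratio at both ages follows from them. The neighbourhood was looked at and the ratio computed after these values were seen, and the ratio was not tested. Within 250 kb on each side of Atg13 there were 12 protein-coding neighbours, of which 10 were tested. Ambra1 was the only one that rose and 1 fell, against 8.72% and 6.36% of all genes. Dgkz and Mdk had estimates about as large as that of Ambra1, 0.815 and 0.754, but did not pass (edgeR adjusted p = 0.0968 and 0.164). Gm9821 had −0.507 (adjusted p = 0.161). Harbi1, between Atg13 and Ambra1, starts 275 bases from Atg13 on the opposite strand and had a log2 fold change of 0.14 (edgeR adjusted p = 0.649). Arhgap1, 2291 bases from the other end of Atg13, had −0.004 (adjusted p = 0.986). Ckap5, 53953 bases away, fell with −0.82 (adjusted p = 0.00678). The printed Atg13 stretch lies in the gap between Atg13 and Harbi1.

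Atg9a encodes a membrane protein whose vesicles supply lipid to the growing autophagosome, and its gene spans chr1:75180860-75192196, minus strand. It was measured at 19.2, 18.9 and 21.1 CPM in young 1, 2 and 3, against 13.8, 13.2 and 11.7 CPM in old 1, 2 and 3. The 3 old hearts were all below the 3 young hearts and differed little from each other. The mean fell from 19.8 ± 1.18 to 12.9 ± 1.06 CPM (SD, n = 3), with a log2 fold change of −0.61 ± 0.14 (edgeR adjusted p = 0.0221). Per length, Atg9a was among the least abundant of the 38 genes, with 3.29 FPKM in young and 2.14 FPKM in old hearts. The call was lost without young 1, 2 or 3 or old 3, with edgeR adjusted p values of 0.084, 0.082, 0.103 and 0.0765. The span of Atg9a overlaps that of Gm29253, a processed transcript on the same strand that was not among the genes tested, by 4287 bases. It shares 46 bases with Ankzf1 on the opposite strand, which had a log2 fold change of 0.60 (adjusted p = 0.0712), and the split of reads in these stretches is uncertain.

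Wipi1 encodes a protein that binds the lipid mark made by the Beclin 1 complex, and its gene spans chr11:109573331-109611967, minus strand. It was measured at 58.8, 58.9 and 66.4 CPM in young 1, 2 and 3, against 51.4, 33.3 and 39.4 CPM in old 1, 2 and 3. Old 1 lay close to the young hearts, and old 2 and old 3 lay well below. The mean fell from 61.4 ± 4.34 to 41.4 ± 9.17 CPM (SD, n = 3), with a log2 fold change of −0.57 ± 0.17 (edgeR adjusted p = 0.0482). This call was lost without young 1, 2 or 3 (adjusted p = 0.129, 0.131 and 0.162), without old 2 or old 3 (adjusted p = 0.106 and 0.144) and in limma fits of the FPKM values (adjusted p = 0.0554 with a pseudocount of 1). The end of Wipi1 touches that of Arsg, a lysosomal arylsulfatase gene on the opposite strand, with 0 bases between them. Arsg, named after its values were seen, went the other way: it was at 0.893, 2.04 and 1.93 CPM in young 1, 2 and 3, against 4.11, 7.45 and 8.16 CPM in old 1, 2 and 3, and rose with a log2 fold change of 2.01 ± 0.37 (edgeR adjusted p = 0.00943).

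The kinase and lipid kinase genes of the group did not pass. Becn1, which encodes Beclin 1, was at 39.2, 43.5 and 41.7 CPM in young 1, 2 and 3, against 38.6, 34.2 and 36.1 CPM in old 1, 2 and 3. All old values were below all young values, but only narrowly, and the log2 fold change was −0.19 ± 0.12 (edgeR adjusted p = 0.304). Ulk1, the main starting kinase, was at 109, 102 and 108 CPM in young 1, 2 and 3, against 69.1, 95.7 and 106 CPM in old 1, 2 and 3, so that old 1 was low and old 3 was level with the young hearts (log2 fold change −0.23, adjusted p = 0.354). Ulk2, its close relative, and Atg14, the subunit that brings the lipid kinase to the forming autophagosome, had values near zero of −0.03 and −0.01 (edgeR adjusted p = 0.884 and 0.966).

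**Figure D2:**
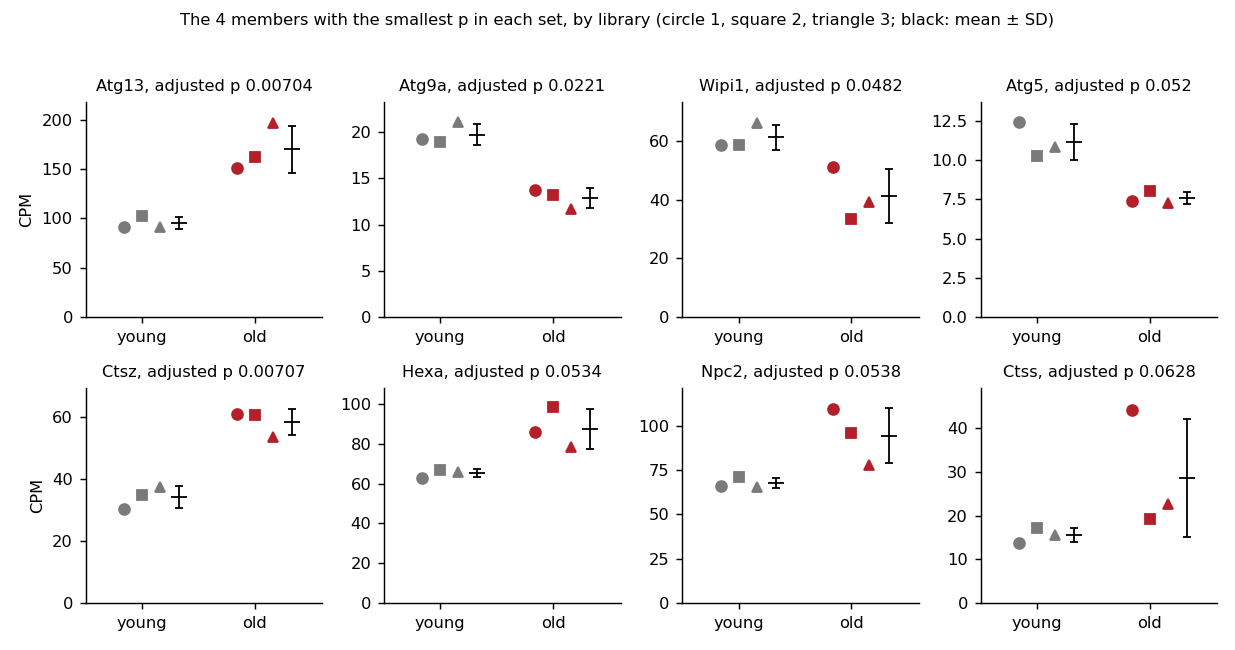
CPM in each library for the 4 autophagy genes (top row) and the 4 lysosome genes (bottom row) with the smallest p, with circles, squares and triangles for replicates 1, 2 and 3 and black bars for the mean ± SD of 3 hearts. Each y axis starts at 0, the groups do not overlap in any of the 8 panels, and old 1 stands far above the other old hearts for Ctss.

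None of the 6 conjugation genes passed, and the group's median log2 fold change was −0.12. These genes encode the enzymes that attach ATG8 proteins to lipid. Atg5, one part of the Atg12-Atg5 conjugate, came closest and was at 12.4, 10.2 and 10.8 CPM in young 1, 2 and 3, against 7.42, 8.01 and 7.27 CPM in old 1, 2 and 3. Its old hearts were all lower than its young hearts and lay within a narrow range. The log2 fold change was −0.56 ± 0.17 (edgeR adjusted p = 0.052), and it passed without old 1, with −0.55 (adjusted p = 0.0296), and in limma fits of the FPKM values (adjusted p = 0.0398 with a pseudocount of 1). Atg12, the other part of the conjugate, was at 27.6, 24.8 and 30.1 CPM in young 1, 2 and 3, against 26.1, 20.6 and 21.2 CPM in old 1, 2 and 3. Its old 1 lay among the young hearts, and the log2 fold change was −0.28 (adjusted p = 0.219). Atg3, the enzyme of the last transfer step, was at 22.8, 19.5 and 19.2 CPM in young 1, 2 and 3, against 22.3, 11.9 and 13.1 CPM in old 1, 2 and 3, where old 1 again matched the young hearts and old 2 and old 3 were lower (log2 fold change −0.37 ± 0.23, adjusted p = 0.293). Atg7, which activates both conjugation routes, had 0.16, Atg16l1, which guides the conjugate to the membrane, had 0.10, and Atg4b, the protease that trims ATG8 proteins, had 0.03 (edgeR adjusted p = 0.487, 0.599 and 0.912).

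The 5 ATG8 genes encode the small proteins that coat the autophagosome, and none passed the test (median log2 fold change −0.18). Map1lc3a was the most abundant of them per length, and of all 38 genes in young hearts, while in old hearts Ctsd was higher. Map1lc3a was at 424 ± 36.2 FPKM in young and 342 ± 50.6 FPKM in old hearts. By library it was at 572, 494 and 501 CPM in young 1, 2 and 3, against 408, 489 and 372 CPM in old 1, 2 and 3. The groups did not overlap, although old 2 came close to young 2, and the log2 fold change was −0.31 ± 0.15 (edgeR adjusted p = 0.181). Map1lc3b, the form most often used as an autophagosome marker, was at 267, 275 and 258 CPM in young 1, 2 and 3, against 258, 222 and 189 CPM in old 1, 2 and 3. Its span overlaps that of Gm20388, a model on the same strand, by 8400 bases. Old 1 was just below the young hearts and old 3 lowest (log2 fold change −0.26 ± 0.14, adjusted p = 0.243). Gabarapl1 was at 126, 147 and 127 CPM in young 1, 2 and 3, against 169, 172 and 130.2 CPM in old 1, 2 and 3, with old 1 and old 2 above the young hearts and old 3 among them (log2 fold change 0.23 ± 0.15, adjusted p = 0.313). Gabarapl2 was at 48.7, 46.3 and 43.8 CPM in young 1, 2 and 3, against 57.9, 35.0 and 29.8 CPM in old 1, 2 and 3, with old 1 above and old 2 and old 3 below every young heart (log2 fold change −0.18 ± 0.22, adjusted p = 0.613). Gabarap was at 202, 188 and 186 CPM in young 1, 2 and 3, against 187, 199 and 163 CPM in old 1, 2 and 3, and its ages overlapped (log2 fold change −0.07, adjusted p = 0.753).

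Within the summed FPKM of the 5 ATG8 genes, Map1lc3a made up 67.1, 63.3 and 65.3% in young 1, 2 and 3 and 57.4, 62.4 and 61.1% in old 1, 2 and 3. Gabarapl1 made up 9.91, 12.6 and 11.1% in the young hearts and 15.9, 14.6 and 14.3% in the old. In both cases the ages did not overlap, Map1lc3a having the smaller and Gabarapl1 the larger share in old hearts, and old 1 was the most extreme. These shares were computed after the levels were seen and were not tested. Gabarap had 15.4 ± 0.168% and 16.8 ± 0.470%, Map1lc3b 5.25 ± 0.307% and 5.01 ± 0.634%, and Gabarapl2 2.94 ± 0.0675% and 2.96 ± 1.02% in young and old hearts (mean ± SD, n = 3).

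The cargo receptors and Bag3 showed no change that passed (0 of 4, median log2 fold change 0.10). Sqstm1, which encodes the receptor p62, was the third most abundant of the 38 genes per length, at 187 ± 16.0 FPKM in young and 199 ± 37.0 FPKM in old hearts, and its log2 fold change was 0.09 ± 0.16 (edgeR adjusted p = 0.726). By library it was at 704, 662 and 599.5 CPM in young 1, 2 and 3, against 840, 686 and 572 CPM in old 1, 2 and 3, so the old hearts spanned a wider range on both sides of the young ones. Optn, a receptor for ubiquitin-tagged mitochondria and bacteria, was at 84.5, 88.9 and 71.1 CPM in young 1, 2 and 3, against 96.1, 107 and 92.5 CPM in old 1, 2 and 3. Every old value was above every young value, but the gap was small beside the spread (log2 fold change 0.28 ± 0.14, adjusted p = 0.191). Nbr1, a receptor related to p62, was at 94.2, 92.4 and 98.9 CPM in young 1, 2 and 3, against 93.2, 71.9 and 76.4 CPM in old 1, 2 and 3, with old 1 among the young hearts (log2 fold change −0.24, adjusted p = 0.251). Bag3, a co-chaperone that hands damaged sarcomere proteins to autophagy in muscle, had 86.0 ± 6.71 FPKM in young and 92.7 ± 13.8 FPKM in old hearts (log2 fold change 0.11, adjusted p = 0.628).

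Of 6 listed partners of BAG3, a list chosen with earlier results of these data known, 3 rose and 0 fell, against the 8.72% and 6.36% of all genes. Hspa8, the constitutive Hsc70 chaperone, was at 953, 834 and 914 CPM in young 1, 2 and 3, against 1919, 1808 and 1457 CPM in old 1, 2 and 3. All old values were far above the young ones, with a log2 fold change of 0.94 ± 0.15 (edgeR adjusted p = 0.00526), and the call held in all 15 alternatives. Hspa1a and Hspa1b, the stress-induced Hsp70 genes, were low and had log2 fold changes of 1.88 ± 0.41 and 1.81 ± 0.52 (adjusted p = 0.0184 and 0.0431). They are near-identical copies, so the split of reads between them is uncertain and their 2 calls are not separate. Without any 1 of the young libraries only 1 of the 3 partner genes, Hspa8, still passed. Old 2 was the highest by a wide margin for both copies, at 15.5 and 16.9 CPM against 5.82 and 3.86 in old 1. Without old 2 the log2 fold changes were 1.21 for Hspa1a, which still passed (edgeR adjusted p = 0.0217), and 0.87 for Hspa1b, which did not (adjusted p = 0.0756). Hspa1b also missed the threshold without old 3 (adjusted p = 0.0652), in limma-voom (adjusted p = 0.115) and in both limma fits of FPKM, and Hspa1a in the FPKM fit with a pseudocount of 1 (adjusted p = 0.0565). Hspb8, the small heat shock protein that pairs with BAG3, had a log2 fold change of −0.04 (adjusted p = 0.919).

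Neither MiT/TFE factor passed. Tfeb was at 41.2, 35.8 and 34.3 CPM in young 1, 2 and 3, against 25.6, 39.0 and 31.7 CPM in old 1, 2 and 3, and its ages overlapped, with old 1 lowest and old 2 among the young hearts (log2 fold change −0.21 ± 0.17, edgeR adjusted p = 0.42). Tfe3 was at 19.4, 21.9 and 19.3 CPM in young 1, 2 and 3, against 19.6, 15.4 and 15.0 CPM in old 1, 2 and 3. Here old 1 lay among the young hearts and old 2 and old 3 were below them (log2 fold change −0.28 ± 0.15, adjusted p = 0.248). The RNA level does not report the activity of these factors, which is known to depend on their phosphorylation and entry into the nucleus.

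**Figure D3:**
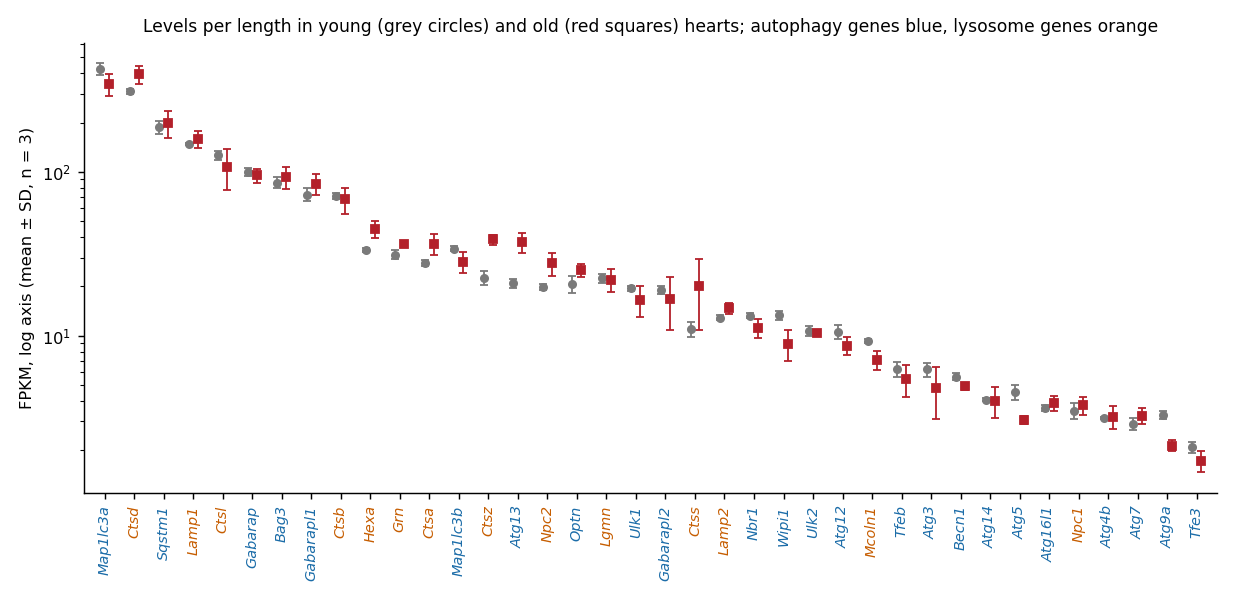
Mean FPKM ± SD of 3 young hearts (grey circles) and 3 old hearts (red squares) for each of the 38 genes on a log axis, ordered by mean level, with autophagy gene names in blue and lysosome gene names in orange. Map1lc3a and Ctsd are highest and Tfe3 lowest, and for most genes the old bars are wider than the young ones.

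Lysosomal proteases ranged widely in level and in the direction of their estimates. The median log2 fold change of the 7 genes was 0.35, and Ctsz was the only one that passed. Ctsz encodes cathepsin Z, a carboxypeptidase, and spans chr2:174427493-174439039, minus strand. It was measured at 30.1, 34.8 and 37.2 CPM in young 1, 2 and 3, against 61.0, 60.5 and 53.5 CPM in old 1, 2 and 3. The 3 old hearts lay close together and all were far above the young ones. The mean rose from 34.0 ± 3.61 to 58.3 ± 4.18 CPM (SD, n = 3), with a log2 fold change of 0.78 ± 0.13 (edgeR adjusted p = 0.00707), and per length from 22.6 to 38.7 FPKM. The call was lost only without young 1 (adjusted p = 0.0525) among the 15 alternatives, a fit in which 539 of all genes passed, against 2174 with 6 libraries. Ctsz shares 10 bases with Nelfcd on the opposite strand, which had a log2 fold change of −0.23.

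Ctss, a cathepsin known from antigen-presenting cells, spans chr3:95526786-95556403, plus strand, and was at 13.8, 17.2 and 15.5 CPM in young 1, 2 and 3, against 44.1, 19.1 and 22.7 CPM in old 1, 2 and 3. Old 1 was far above the other old hearts, while old 2 was only just above young 2. The mean was 15.5 ± 1.67 CPM in young and 28.6 ± 13.5 CPM in old hearts, and the log2 fold change of 0.89 ± 0.28, the largest estimate among the 38 genes, did not pass (edgeR adjusted p = 0.0628). Without old 1 it was 0.43 (adjusted p = 0.039), and it also passed in DESeq2 (adjusted p = 0.018). Ctsa, a carboxypeptidase that also protects other lysosomal enzymes, was at 143, 134 and 134 CPM in young 1, 2 and 3, against 164, 207 and 168 CPM in old 1, 2 and 3, with no overlap between ages (log2 fold change 0.39 ± 0.14, adjusted p = 0.083).

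Ctsd, the aspartic protease and the most abundant lysosome gene per length, had 309.7 ± 11.2 FPKM in young and 394 ± 50.8 FPKM in old hearts. By library it was at 824, 831 and 784 CPM in young 1, 2 and 3, against 1052, 1159 and 901 CPM in old 1, 2 and 3. The ages did not overlap, but the old hearts varied more, and the log2 fold change was 0.35 ± 0.14 (edgeR adjusted p = 0.113). The span of Ctsd overlaps that of Gm49369, a model on the same strand, by 6757 bases. Ctsl, a cysteine protease needed for normal heart muscle, was at 257, 277 and 244 CPM in young 1, 2 and 3, against 295, 195 and 177 CPM in old 1, 2 and 3: old 1 was above and old 2 and old 3 below every young heart (log2 fold change −0.22 ± 0.19, adjusted p = 0.456). Ctsb, a related cysteine protease, and Lgmn, a protease that cuts after asparagine, had −0.07 and −0.03 (adjusted p = 0.808 and 0.907).

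The make-up of the protease RNA differed between hearts. The ratio of Ctsd to Ctsl in FPKM was 2.51, 2.34 and 2.52 in young 1, 2 and 3 and 2.79, 4.65 and 3.97 in old 1, 2 and 3, with no overlap and with old 1 nearest to the young hearts. Of the summed FPKM of the 7 proteases, Ctsb held 11.6, 12.0 and 12.7% in the young hearts and 10.3, 10.0 and 9.20% in the old. Ctsz held 3.42, 3.79 and 4.30% in the young and 5.39, 5.55 and 6.06% in the old. The shares of both genes differed without overlap, in opposite directions. Ctsl held 21.3 ± 0.765% and 15.6 ± 3.11%, and Ctsd 52.4 ± 0.978% and 57.4 ± 3.87% in young and old hearts (mean ± SD, n = 3). These ratios and shares were computed after the levels were seen and were not tested.

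The 3 other lumenal proteins had the highest group median, 0.43, and in each the old hearts were all above the young ones, yet none passed. Hexa, a subunit of the hexosaminidase that degrades gangliosides, spans chr9:59539540-59565109, plus strand, and was at 63.0, 66.8 and 66.0 CPM in young 1, 2 and 3, against 86.2, 98.5 and 78.5 CPM in old 1, 2 and 3 (log2 fold change 0.43 ± 0.13, edgeR adjusted p = 0.0534). Npc2, a soluble cholesterol carrier, spans chr12:84754562-84773152, minus strand, and was at 66.1, 70.8 and 65.6 CPM in young 1, 2 and 3, against 109, 96.0 and 78.0 CPM in old 1, 2 and 3 (log2 fold change 0.48 ± 0.15, adjusted p = 0.0538). For both genes the young hearts lay close together and the old hearts did not. Grn, which encodes progranulin, was at 113, 120.1 and 106 CPM in young 1, 2 and 3, against 126, 132 and 138 CPM in old 1, 2 and 3 (log2 fold change 0.22 ± 0.12, adjusted p = 0.236). Hexa and Npc2 passed in DESeq2 (adjusted p = 0.0454 and 0.0356) and without old 1 (adjusted p = 0.014 and 0.0296), and Npc2 also without old 3 (adjusted p = 0.0385).

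None of the 4 lysosomal membrane genes passed (median log2 fold change 0.11). Mcoln1, the calcium channel of the lysosomal membrane, was the only one of the 14 lysosome genes with all old values below all young values, at 31.7, 30.5 and 32.3 CPM in young 1, 2 and 3, against 28.4, 22.8 and 22.0 CPM in old 1, 2 and 3 (log2 fold change −0.37 ± 0.14, edgeR adjusted p = 0.104). Lamp2, a coat protein of the lysosomal membrane whose loss causes a heart muscle disease, was at 124, 126 and 134 CPM in young 1, 2 and 3, against 161, 135 and 147 CPM in old 1, 2 and 3. Its old hearts were all above the young ones, old 2 only just so (log2 fold change 0.20 ± 0.13, adjusted p = 0.298). Lamp1, the more abundant coat protein, had 148 ± 2.17 FPKM in young and 159 ± 19.1 FPKM in old hearts, and its log2 fold change was 0.11 (adjusted p = 0.604). Npc1, the membrane partner of Npc2 in cholesterol export, had 0.12 (adjusted p = 0.617).

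Further genes of the same pathways, in lists chosen with earlier results of these data known, are given beside the background of 8.72% higher and 6.36% lower. Of 31 tested genes of the autophagy machinery beyond the 24, 1 rose (Ambra1) and 0 fell, with a median log2 fold change of −0.13. The next by p were Tollip, an adaptor for ubiquitin-tagged cargo, with −0.40 and Calcoco1, a receptor for the endoplasmic reticulum, with −0.61 (edgeR adjusted p = 0.0626 and 0.0687). Without old 1 the list had 3 higher and 10 lower, in a fit where 20.1% of all genes rose and 17.7% fell. Without young 1 or young 3 it had 0 of either, where 539 and 619 of all genes passed, against 2174 with 6 libraries.

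Of 46 other lysosomal enzymes and membrane proteins, 5 rose and 1 fell (median log2 fold change 0.10), against 8.72% and 6.36% of all genes. Gaa, the acid glucosidase that degrades glycogen and is lacking in Pompe disease, was at 134, 129 and 121 CPM in young 1, 2 and 3, against 180.3, 216 and 203 CPM in old 1, 2 and 3, a log2 fold change of 0.64 ± 0.13 (edgeR adjusted p = 0.0129). Laptm5, a lysosomal membrane protein of blood-derived cells, was at 17.1, 24.7 and 20.1 CPM in young 1, 2 and 3, against 34.3, 40.4 and 46.1 CPM in old 1, 2 and 3 (log2 fold change 0.96 ± 0.17, adjusted p = 0.00849). Cd63, a tetraspanin of late endosomes, was at 92.0, 94.4 and 96.6 CPM in young 1, 2 and 3, against 179, 139.5 and 130.3 CPM in old 1, 2 and 3 (log2 fold change 0.67 ± 0.15, adjusted p = 0.0192). All 3 genes were higher in every old heart than in any young one. Galns, a sulfatase, and Scarb2, the carrier of glucocerebrosidase, rose with 0.82 and 0.45 (adjusted p = 0.0241 and 0.0443), and Arsb, another sulfatase, fell by 1.35 on the log2 scale (adjusted p = 0.0242). The list had 0 genes past the threshold without young 1 or young 3, 1 without young 2, and 19 without old 1. Over all genes 539, 619, 540 and 5570 passed in these fits, against 2174 with 6 libraries.

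Of 17 subunits of the V-ATPase, the proton pump that acidifies lysosomes, 0 rose and 3 fell, against 8.72% and 6.36% of all genes. The median log2 fold change was 0.00. Atp6v0c, the proton-carrying ring subunit, was at 67.9, 72.4 and 71.5 CPM in young 1, 2 and 3, against 53.9, 34.8 and 34.1 CPM in old 1, 2 and 3 (log2 fold change −0.79 ± 0.18, edgeR adjusted p = 0.0219), with old 1 nearest to the young hearts. Atp6v1d and Atp6v1b2, of the part of the pump that uses ATP, fell with −0.46 and −0.48 (adjusted p = 0.0404 and 0.0418). None of the 3 passed when any library other than old 1 was left out. In those fits 539 to 1541 of all genes passed, against 2174 with 6 libraries. Of 6 genes that sort enzymes to the lysosome 0 passed, and the lowest p values were those of Gnptg (0.43, adjusted p = 0.115), Sort1 (−0.41, adjusted p = 0.183) and Gnptab (0.33, adjusted p = 0.265). At an unadjusted p under 0.05 there was 1 of these 6, Gnptg.

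Of 34 genes of mTORC1, AMPK and MiT/TFE control, which sense nutrients at the lysosome, 1 rose and 3 fell (median log2 fold change −0.13). Over all genes 8.72% rose and 6.36% fell. The 3 that fell belong to the lysosomal platform that holds mTORC1: Lamtor3 was at 41.5, 41.7 and 41.7 CPM in young 1, 2 and 3, against 30.3, 31.7 and 26.4 CPM in old 1, 2 and 3 (log2 fold change −0.50 ± 0.12, edgeR adjusted p = 0.0292), Lamtor1 had −0.45 and the GTPase Rragd −0.41 (adjusted p = 0.0437 and 0.0495). Lamtor2, of the same platform, was measured in the other direction at 0.38 and did not pass (adjusted p = 0.0715). Nor did its other listed genes. Lamtor4, Lamtor5 and Rragc had 0.087, 0.009 and −0.127 (edgeR adjusted p = 0.706, 0.976 and 0.491). Rraga and Rragb had −0.717 and −0.291 (adjusted p = 0.104 and 0.672). Fnip1, a partner of folliculin, rose with 0.53 (edgeR adjusted p = 0.0397). Lamtor1, Lamtor3, Rragd and Fnip1 all missed the threshold with the replicate number as a block, without any 1 young heart and without old 3. Rragd also missed it with other size factors (RLE), without a count filter and in limma-voom. Both limma fits of FPKM lost the calls of Rragd and Fnip1. The number of the 34 that passed went from 4 to 0 without young 1, young 2 or old 3, and to 1 without young 3. It went to 2 without old 2 and to 17 without old 1. Over all genes 539, 540 and 619 passed without young 1, 2 and 3. Without old 1, 2 and 3 the numbers were 5570, 1541 and 919, against 2174 with 6 libraries.

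Several lysosome genes are also abundant in macrophages, and markers of macrophages moved with age in the same libraries. Of 20 macrophage markers 9 rose and 0 fell (median log2 fold change 0.59), against the 8.72% of all genes that rose. Their summed FPKM was 270.3, 337.5 and 312 FPKM in young 1, 2 and 3 and 623.1, 432.4 and 428.6 in old 1, 2 and 3, and none of the 20 was at 0. C1qa, a complement gene made by tissue macrophages, was at 51.2, 59.4 and 59.3 CPM in young 1, 2 and 3, against 135, 122 and 138 CPM in old 1, 2 and 3, a log2 fold change of 1.22 ± 0.13 (edgeR adjusted p = 0.00142). Lyz2, a lysozyme of macrophages and neutrophils, was at 146, 188 and 169.7 CPM in young 1, 2 and 3, against 345, 179 and 145 CPM in old 1, 2 and 3: old 1 stood alone, and the log2 fold change was 0.41 (adjusted p = 0.342), or −0.05 without old 1. The defining markers Cd68, Csf1r and Adgre1 (named Emr1 in these data) had 0.46, 0.10 and −0.11 and did not pass (edgeR adjusted p = 0.125, 0.602 and 0.724). When 1 library was left out 4 to 11 markers passed. There were 4 without young 1 and 5 without young 3, where 539 and 619 of all genes passed. Ctss was high in the same library as Lyz2, old 1, while Ctsz was about level in the 3 old hearts. The part of macrophages in the values of Ctss, Ctsz, Laptm5 and the other lysosome genes was not tested, and in whole hearts fewer or more cells of a type and less or more RNA per cell cannot be told apart.

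**Figure D4:**
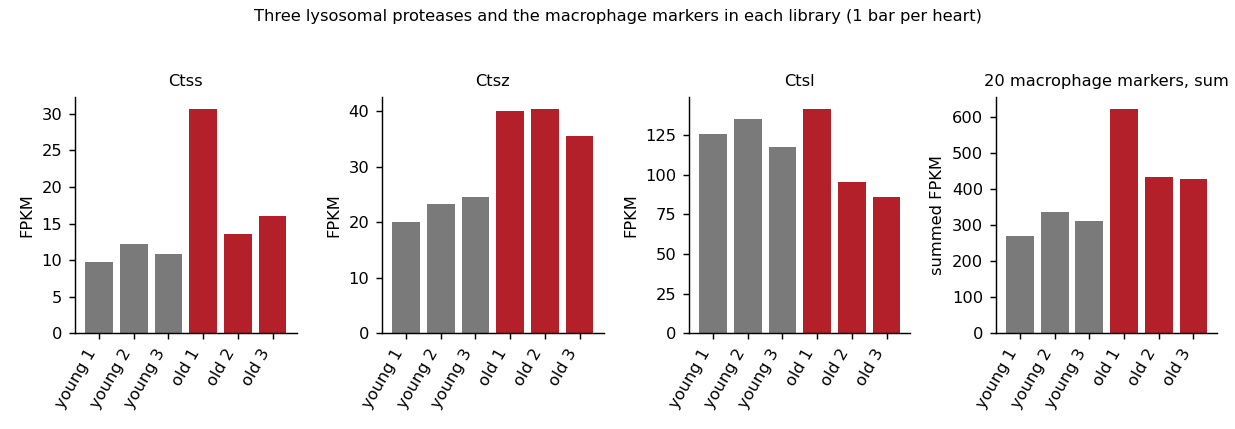
FPKM of Ctss, Ctsz and Ctsl and the summed FPKM of 20 macrophage markers, 1 bar per heart, young in grey and old in red, with every y axis starting at 0. Old 1 is highest for Ctss, for Ctsl and for the markers, whereas the 3 old hearts are nearly level for Ctsz.

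Markers of other cells were measured beside the same results, and are read against the 8.72% of all genes that rose and the 6.36% that fell. Of 10 cardiomyocyte markers 1 rose and 3 fell (median log2 fold change −0.20), with summed FPKM of 28260 to 31160 in young and 24780 to 28650 in old hearts. The one that rose was Myl2 (0.58, edgeR adjusted p = 0.0315), and Myh6, Actc1 and Pln fell with −0.75, −1.23 and −0.61 (adjusted p = 0.0123, 0.00256 and 0.0267). The most abundant, Mb, had −0.19 (adjusted p = 0.338). Of 8 fibroblast markers 0 rose and 2 fell (median −0.58), and 7 of the 8 estimates were below 0, as were 6981 of all 14413 genes tested. The collagen genes Col1a1 and Col3a1 fell with −1.17 and −1.09 (adjusted p = 0.0117 and 0.0286), while Dcn and Dpt, the most abundant, had 0.02 and −0.08. The summed fibroblast FPKM was 541.6 in old 1 but 223.9 and 323.1 in old 2 and old 3 (young 341.1 to 457.8). Of 8 endothelial markers 0 rose and 3 fell (median −0.33), and again 7 of the 8 estimates were below 0. Cdh5, Pecam1 and Tie1 fell with −0.996, −0.59 and −0.56 (adjusted p = 0.00235, 0.0396 and 0.045), while Fabp4 and Egfl7, the most abundant, had −0.05 and 0.37. The endothelial sums were 561.5 to 657.7 FPKM in young and 488.4 to 556.1 FPKM in old hearts. Of 7 smooth muscle and pericyte markers 1 fell, Kcnj8 with −0.56 (adjusted p = 0.0196), and the median was −0.17, with Rgs5 and Acta2 the most abundant at −0.89 and 0.51. Of 5 blood markers 1 fell, Alas2 with −1.21 (adjusted p = 0.0465), and the median was −0.71, with Hbb-bs and Hba-a1 the most abundant at −0.28 and −0.49. Of the 5 B and plasma cell markers tested 0 passed in edgeR, with 0 at an unadjusted p under 0.05, and Mzb1 and Igj, the most abundant, had 0.11 and 1.09. Old 1 was above old 2 and old 3 for the fibroblast sum. It was also above them for 20 of the 38 genes, Ctsl, Gabarapl2 and Atg3 among them, a count not made over all genes. The part of these cell types in the results was not tested.

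The old hearts differed from each other more than the young ones did in most of these genes. The coefficient of variation of CPM was larger in old than in young hearts for 33 of 38 genes, with a median of 6.27% in young and 14.1% in old hearts (9.60% and 19.3% over all genes tested). Old 1 was the highest of the 3 old hearts for 20 genes, the lowest for 9 and in the middle for 9. This was not counted over all genes, where old 1 also stood apart on the first principal component. Over the autophagy genes, the median log2 distance from the young mean was −0.04 in old 1, −0.12 in old 2 and −0.21 in old 3. Over the lysosome genes it was 0.28, 0.18 and 0.20, so the lysosome median was above the young mean in each old heart while the autophagy median was close to it in old 1.

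Leaving out old 1 raised the number of genes that passed over all genes, and leaving out any other library lowered it. Over all genes 20.1% then rose and 17.7% fell, of 14702 tested. Of the autophagy genes 10 of 24 then passed. Atg13 rose with 0.92 (adjusted p = 0.00036), and 9 fell: Wipi1 with −0.76 (adjusted p = 0.000951), Atg3 with −0.71 (adjusted p = 0.00362), Atg9a with −0.67 (adjusted p = 0.0041), Atg5 with −0.55 (adjusted p = 0.0296), Gabarapl2 with −0.52 (adjusted p = 0.00573), Tfe3 with −0.41 (adjusted p = 0.0297), Atg12 with −0.40 (adjusted p = 0.0294), Map1lc3b with −0.38 (adjusted p = 0.0226) and Nbr1 with −0.36 (adjusted p = 0.0167), all by edgeR. Of the 14 lysosome genes 7 passed, with 5 higher and 2 lower. Ctsz rose with 0.74 (adjusted p = 0.00113), Ctsa with 0.45 (adjusted p = 0.0122), Hexa with 0.44 (adjusted p = 0.014), Ctss with 0.43 (adjusted p = 0.039) and Npc2 with 0.36 (adjusted p = 0.0296), while Mcoln1 fell with −0.50 (adjusted p = 0.00542) and Ctsl with −0.48 (adjusted p = 0.00724). These are fits of 3 young and 2 old hearts, in which the spread of the old hearts rests on old 2 and old 3. Leaving out young 1, 2 or 3 left 0, 1 and 0 autophagy genes and 0, 1 and 1 lysosome genes, where 539, 540 and 619 of all genes passed. Leaving out old 2 or old 3 left 2 and 1 autophagy genes and 2 and 2 lysosome genes.

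**Figure D5:**
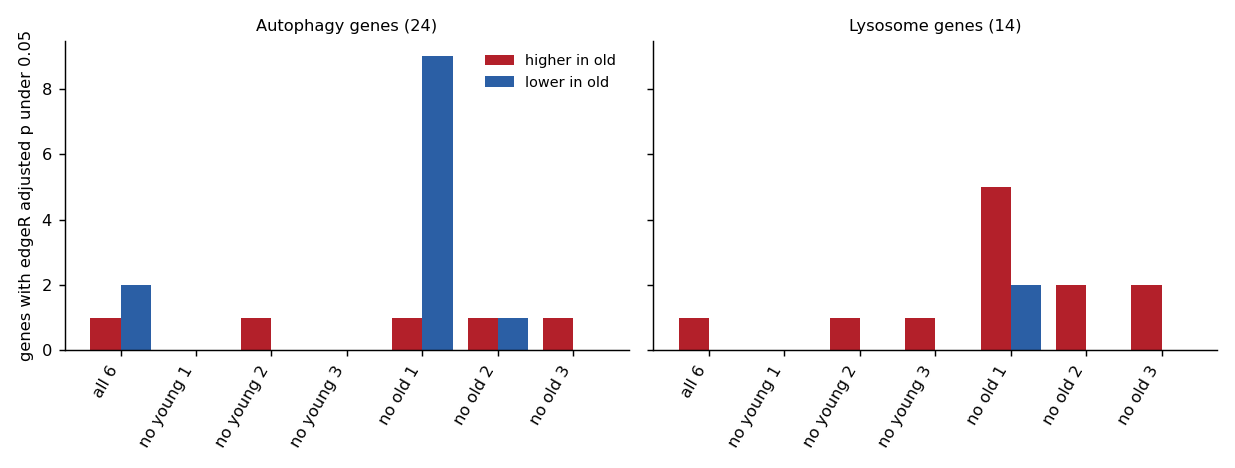
Number of the 24 autophagy genes (left) and 14 lysosome genes (right) with edgeR adjusted p under 0.05, higher (red) or lower (blue) in old hearts, with all 6 libraries and with each library left out in turn. The bars are tallest without old 1, where 9 autophagy genes are lower and 5 lysosome genes are higher.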

How the data were processed

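RNA from 3 young and 3 old mouse hearts was sequenced. Per the submitters' processing notes, HISAT2, GRCm38.p6 and featureCounts (Subread) were used by the authors before they deposited counts, which are whole reads per gene. The authors' second table, of FPKM values (scaled to gene length and depth), covers 13170 genes. The strand setting of the read counting is not given, so reads where genes overlap on opposite strands may belong to either.

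Of 44200 models, 571 without a name (at most 0.3685% of counts) were left out. R 4.3.3 was used with edgeR 4.0.16 (filterByExpr, TMM, quasi-likelihood F test, Benjamini-Hochberg), limma 3.58.1 and DESeq2 1.42.0, and the scripts were tested on simulated data. The members and lists were chosen with earlier results of these data known. All 38 genes are named, with values per library for those that passed, the ATG8 genes and the 2 smallest p in each role. Of each pathway list the 3 smallest p, and of each marker list the 2 highest FPKM, are named. Other marker genes were named after their values were seen. Positions are from GENCODE M21 and promoters from RefSeq (GRCm38.p6). Alternatives were other size factors, filters and tests, limma on log2(FPKM + 1) or log2(FPKM + 0.1), a replicate block, and leaving out any 1 library.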

Additional observations from a re-analysis of the deposited data

How the results depend on the processing

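With 3 hearts per age the number of genes past the threshold depends strongly on how many hearts are used and, among the old hearts, on which. The depth of 13673856 to 15583364 counts limits genes of low level most. Of the 38 genes, 30 kept the sign of their estimate in all 15 alternatives and 8 did not. Over all genes, 2174 passed with 6 libraries. Leaving out young 1, 2 or 3 left 539, 540 and 619, so the fall was similar for each young heart. Leaving out old 1, 2 or 3 gave 5570, 1541 and 919. Under those settings 0 to 10 autophagy genes and 0 to 7 lysosome genes passed, and the medians ran from −0.22 to −0.08 (autophagy; −0.081 without old 1) and from 0.19 to 0.24 (lysosome). The lysosome count was 3 without a count filter and 4 in DESeq2. In the other alternatives it stayed at 1, the autophagy count lay between 2 and 4, and the medians kept their sign.

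Estimates that changed sign when 1 library was left out were Ulk2 (−0.091 to 0.021, above 0 without young 1), Lgmn (−0.171 to 0.072, above 0 without old 3 and, with 0.004, without young 2), Atg4b (−0.096 to 0.135, below 0 without old 3), Gabarap (−0.133 to 0.007), Gabarapl2 (−0.518 to 0.004) and Ctsb (−0.172 to 0.076), these 3 above 0 without old 3, and Atg14 (−0.166 to 0.133), Sqstm1 (−0.062 to 0.218) and the marker Lyz2 (−0.052 to 0.643), these 3 of the other sign without old 1. Atg4b was also at −0.012 with upper-quartile factors. None of these passed the test with 6 libraries, and the cause was not tested.

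Among the lists, leaving out 1 library gave 0 to 13 genes of the other autophagy machinery, 0 to 19 other lysosomal genes, 0 to 7 V-ATPase subunits, 0 to 1 sorting genes, 0 to 17 control genes, 1 to 3 BAG3 partners and 4 to 11 macrophage markers. The control list had 8 genes with no filter or DESeq2 and 2 in the limma fits of FPKM. The other autophagy machinery had 2 with upper-quartile factors and 3 with no filter or DESeq2, and BAG3 partners had 1 with limma on log2(FPKM + 1).

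The replicate numbers do not pair the hearts: deviations of same-numbered young and old hearts correlated at −0.086, −0.069 and 0.029 across genes, and no heart correlated best with its own number. With the replicate number as a block 1774 genes passed, with 2 autophagy genes and 1 lysosome gene, Wipi1 was at an adjusted p of 0.0502, and 1 V-ATPase subunit and 1 control gene passed.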
